A study of Mus musculus with 16 samples.

Results

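OCT4 binding was described around Klf2, Klf4 and Klf5, the genes of the Krüppel-like factor (KLF) family that serve naive pluripotency, with Klf3, Klf6, Klf7, Klf9 and Klf10 as a family comparison. Members were the OCT4 ChIP-seq peaks whose midpoint lay within 100 kb of any annotated transcript start of these genes. In all, 17 of 26704 peaks met this rule for Klf2, Klf4 or Klf5, and 29 further peaks met it for the 5 comparison genes. The study depleted SOX2 or OCT4 from mouse embryonic stem (ES) cells to ask what each does to chromatin, with ATAC-seq and ChIP-seq. The part of it taken up here held 16 ChIP-seq libraries in 8 groups of 2 replicates. The 4 OCT4 libraries came from 2TS22C cells, in which a Tet-Off transgene is the only source of SOX2. Cells left untreated kept SOX2 (SOX2 ON), and cells given doxycycline at 1 µg/ml for 26 h lost it (SOX2 OFF), although by the study's account some SOX2 remains at that time. The cells of both groups were grown in serum with LIF, the GSK3 inhibitor CHIR99021 and the MEK inhibitor PD184352. 2TS22C is a single engineered line, and by the study's methods the replicates were biological duplicates.

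The OCT4 values used here were the coordinates of 1 merged list of peaks, with no height, read count or library name. SOX2 ON and SOX2 OFF cells could therefore not be compared, the depth was unknown, and a peak missing from the list could not be told from a peak too weak to be called. Which of the 4 libraries entered the merge is not stated. There were no replicates behind any value, no test was made, and all comparisons are descriptions. No transcript was measured, so the cell type could not be checked against its markers.

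KLF proteins are zinc finger transcription factors that bind GC-rich and CACCC-type sequence. In mouse ES cells, Klf4 is a target of LIF and STAT3 signalling, Klf2 is kept active when MEK/ERK signalling is blocked, and Klf5 supports self-renewal, with overlapping functions among them. OCT4, encoded by Pou5f1, binds the octamer through its POU domain, and with SOX2 it binds a composite element in which a SOX site directly precedes an octamer. Klf4 is also known as a partner of OCT4 and SOX2 in reprogramming of somatic cells.

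The sequences that carry the motif results are shown first. The composite motif was searched as a SOX segment, CATTGTT or CTTTGTT, followed without a gap by the OCT segment ATGCAAAT, on both strands and with at most 3 mismatches over 15 bases. The 7 matches in the Klf2, Klf4 and Klf5 peaks are given below on the strand of the match (GRCm38/mm10), in capitals, with 15 flanking bases on each side, and each is named by the distance of its peak from the gene's nearest start.
Klf2 47.5 kb upstream, chr8:72271476-72271520, minus strand: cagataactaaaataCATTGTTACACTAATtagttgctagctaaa
Klf4 11.9 kb downstream, chr4:55519894-55519938, minus strand: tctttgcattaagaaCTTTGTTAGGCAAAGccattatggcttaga
Klf4 54.2 kb downstream, chr4:55477525-55477569, minus strand: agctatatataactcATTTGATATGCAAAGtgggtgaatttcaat
Klf4 67.4 kb downstream, chr4:55463934-55463978, minus strand: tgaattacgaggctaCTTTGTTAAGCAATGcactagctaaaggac
Klf5 19.9 kb upstream, chr14:99278659-99278703, plus strand: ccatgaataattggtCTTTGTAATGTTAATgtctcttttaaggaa
Klf5 55.0 kb downstream, chr14:99354194-99354238, minus strand: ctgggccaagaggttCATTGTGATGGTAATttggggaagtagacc
Klf5 56.3 kb downstream, chr14:99355517-99355561, minus strand: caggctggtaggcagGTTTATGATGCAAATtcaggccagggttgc

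No match of the 7 was perfect. The match 11.9 kb downstream of Klf4 had the fewest mismatches, with 2, both in the OCT segment. The other 6 had 3 mismatches each. At the Klf5 peak 56.3 kb downstream all 3 fell in the SOX segment and the octamer was intact. At the Klf2 peak and at the Klf4 peak 67.4 kb downstream all 3 fell in the OCT segment and the SOX segment was intact. The remaining 3 matches had mismatches in both segments.

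The central sequence of 4 peaks is also shown, on the plus strand and up to 300 bases long, for the nearest peak to Klf4, for the Klf5 peak with the intact octamer, and for both peaks within 10 kb of Klf2. Capitals mark composite matches, octamers (ATGCAAAT), SOX cores (CCATTGT or CCTTTGT) and KLF boxes (GGGTGTGG or GGGCGTGG), each on either strand. The octamer is the OCT segment of the composite, and the SOX core shares its last bases with the SOX segment, so that these matches may overlap.
Klf4 11.9 kb downstream, chr4:55519724-55520023, plus strand: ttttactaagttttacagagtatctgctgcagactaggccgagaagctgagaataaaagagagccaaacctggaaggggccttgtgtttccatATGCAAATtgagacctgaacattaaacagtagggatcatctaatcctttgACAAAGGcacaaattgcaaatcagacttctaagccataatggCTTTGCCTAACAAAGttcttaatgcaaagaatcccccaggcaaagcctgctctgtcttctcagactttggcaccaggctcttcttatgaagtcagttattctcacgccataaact
Klf5 56.3 kb downstream, chr14:99355305-99355604, plus strand: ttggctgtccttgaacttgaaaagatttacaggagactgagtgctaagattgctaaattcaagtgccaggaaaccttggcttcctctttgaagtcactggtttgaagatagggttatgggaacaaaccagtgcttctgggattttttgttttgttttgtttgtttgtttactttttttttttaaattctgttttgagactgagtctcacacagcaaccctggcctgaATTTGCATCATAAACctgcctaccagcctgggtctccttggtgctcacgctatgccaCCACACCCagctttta
Klf2 7.74 kb upstream, chr8:72311145-72311444, plus strand: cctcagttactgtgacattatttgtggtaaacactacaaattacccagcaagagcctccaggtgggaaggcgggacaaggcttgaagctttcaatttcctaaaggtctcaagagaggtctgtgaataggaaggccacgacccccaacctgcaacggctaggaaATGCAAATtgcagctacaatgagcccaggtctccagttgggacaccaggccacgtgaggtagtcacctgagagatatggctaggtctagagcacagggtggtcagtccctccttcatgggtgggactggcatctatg
Klf2 2.77 kb upstream, chr8:72316110-72316409, plus strand: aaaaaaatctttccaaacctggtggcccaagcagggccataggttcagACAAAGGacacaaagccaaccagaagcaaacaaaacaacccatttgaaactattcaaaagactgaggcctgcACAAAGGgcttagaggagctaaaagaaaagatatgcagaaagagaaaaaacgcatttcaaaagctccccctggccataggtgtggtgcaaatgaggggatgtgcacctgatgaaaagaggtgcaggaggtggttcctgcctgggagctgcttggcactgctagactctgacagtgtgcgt

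Around Klf2 (chr8:72319033-72321656, plus strand, 1 annotated start) there were 6 peaks within 100 kb, 4 within 50 kb and 2 within 10 kb. Both near peaks lay upstream in intergenic sequence. The nearest, 2.77 kb upstream (chr8:72316050-72316471), was 422 bp wide and held 2 SOX cores and no octamer or composite match. The next, 7.74 kb upstream (chr8:72311053-72311537), was 485 bp wide and held an octamer 16.5 bases from its midpoint. Its nearest protein-coding start was that of the predicted gene Gm10282, at 6.04 kb.

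The only Klf2 peak on the downstream side (chr8:72333957-72334718) lay 15.3 kb from the start, was the widest of the 6 at 762 bp, and held a KLF box. The peak with the composite match (chr8:72271417-72271676) was the narrowest at 260 bp, also held a SOX core, and was nearer to Ap1m1, a clathrin adaptor subunit gene, at 18.6 kb. The last 2 Klf2 peaks lay 99.1 and 98.0 kb upstream, just inside the 100 kb limit, and were 0.121 and 1.24 kb from a start of Fam32a. They were 291 and 268 bp wide and held none of the motifs searched. Their midpoints lay in an intron and an exon of Fam32a (chr8:72219740-72220030 and chr8:72220866-72221133), and the first peak spanned the Fam32a start. The second was 80.6% repeat-masked. Klf2 was thus the nearest protein-coding gene for 2 of its 6 peaks, and 3 of the 6 were at least 300 bp wide. Over all peaks, 64.8% were at least 301 bp wide.

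Around Klf4 (chr4:55527143-55532466, minus strand, 3 starts) there were 5 peaks within 100 kb, 2 within 50 kb and 0 within 10 kb. All 5 lay downstream of the gene's start, and none was found upstream before 144.4 kb. The nearest (chr4:55519709-55520040, 332 bp) lay 11.9 kb downstream and past the 3′ end of the gene. It held the composite match with 2 mismatches, a separate octamer and a SOX core, which lay 41.5, 54.0 and 4.5 bases from its midpoint. It was the only one of the 46 peaks around the 8 genes to hold all 3.

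The other 4 Klf4 peaks lay 49.3 to 67.4 kb downstream, after a gap of 37.1 kb without a peak. The peak at 49.3 kb (chr4:55482241-55482654, 414 bp) held none of the motifs. The peak at 54.2 kb (chr4:55477341-55477776, 436 bp) held a composite match 11.5 bases from its midpoint. The peak at 56.1 kb (chr4:55475348-55476050, 703 bp) again held none. The farthest, at 67.4 kb (chr4:55463836-55464820), was the widest of the 17 at 985 bp, a width that 1.04% of all peaks reached. It lay in an intron of the non-coding RNA gene Gm12510 and held 2 SOX cores, and its composite match lay 372 bases from the midpoint, outside the central 200 bp. No other protein-coding start lay nearer than that of Klf4 to any of these 5 peaks.

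Around Klf5 (chr14:99298691-99315036, plus strand, 2 starts) there were 6 peaks within 100 kb, 4 within 50 kb and 0 within 10 kb. All 6 were intergenic, and Klf5 was the nearest protein-coding gene for each. The single upstream peak was also the nearest, at 19.9 kb (chr14:99278382-99279143, 762 bp), with a composite match and a SOX core. The other 5 lay beyond the 3′ end of the gene, from 25.9 to 56.3 kb downstream of its start.

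Of these, the peak at 25.9 kb (chr14:99324723-99325291, 569 bp) and the peak at 32.6 kb (chr14:99331603-99331866, 264 bp) held none of the motifs. The peak at 40.9 kb (chr14:99339608-99340502) was the widest of the Klf5 peaks at 895 bp and held an octamer 208 bases from its midpoint. The 2 farthest peaks were only 876 bp apart and both held a composite match. The first of them (chr14:99354006-99354372, 367 bp) had no other motif, and the second (chr14:99355249-99355661, 413 bp) also held a KLF box.

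**Figure D1:**
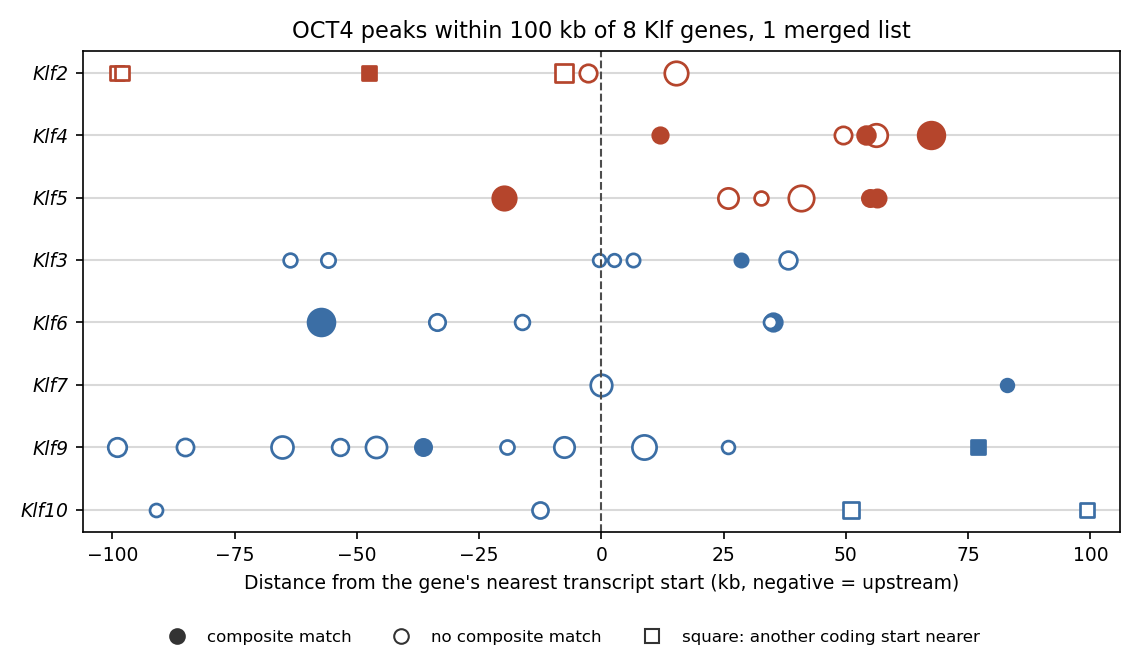
OCT4 peaks of the merged list within 100 kb of each Klf gene, by distance in kb from the gene's nearest transcript start, with marker area in proportion to peak width. Filled markers hold a composite match and squares are nearer to the start of another protein-coding gene. The 5 Klf4 peaks all lie on the downstream side, and Klf4, Klf5, Klf6 and Klf10 have no peak within 10 kb. Of all protein-coding genes, 38.5% have at least 1 peak within 10 kb.

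The counts were read beside those of all 21938 protein-coding genes, of which 38.5% had at least 1 peak within 10 kb of a start, 72.1% within 50 kb and 85.4% within 100 kb. Within 100 kb, 20% of protein-coding genes had at least 6 peaks, the count of Klf2 and Klf5, and 29.5% had at least 5, the count of Klf4. The median gene had 3. Within 50 kb, 16.8% of genes had at least the 4 peaks of Klf2 and Klf5, and 48.9% had at least the 2 peaks of Klf4. Within 10 kb, Klf2 with 2 peaks was matched by 12.8% of genes. A peak as near as that of Klf2 was found for 22.9% of genes, as near as that of Klf4 for 41.2%, and as near as that of Klf5 for 51.6%. The counts around the 3 genes were thus above the median of all genes at 100 kb but within the range that many genes reached. The 5 comparison genes had similar counts, with a mean of 5.8 peaks within 100 kb against 5.67 for Klf2, Klf4 and Klf5. Within 50 kb the means were 3.4 and 3.33, and within 10 kb they were 1.2 and 0.667. The median distance to the nearest peak was 7.74 kb for the comparison genes and 11.9 kb for Klf2, Klf4 and Klf5.

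The naive pluripotency network list, 14 genes that include Pou5f1, Sox2, Nanog and Esrrb, was counted in the same way. All 14 genes had a peak within 10 kb, where Klf4 and Klf5 had none, and their nearest peak lay between 0.016 and 4.97 kb, with a median of 0.745 kb. Over all protein-coding genes this median was 18.5 kb. Within 100 kb the network genes had a median of 7 peaks, from 3 at Tfcp2l1 and Nr0b1 to 15 at Sall4. Pou5f1 had 13, Nanog 12, Sox2 and Tbx3 9 each, Esrrb and Dppa3 8 each, Gbx2 6, Prdm14 and Nr5a2 5 each, and Zfp42 and Stat3 4 each. Nanog and Dppa3 are neighbours whose 100 kb windows overlap, so a peak can count for both. Distances were taken from any annotated start, of which Sox2, Prdm14 and Nr0b1 have 1 and Stat3 has 14. The 5 to 6 peaks of Klf2, Klf4 and Klf5 lay within that range. The list was drawn up with earlier results of these data known, and no test was made on it.

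**Figure D2:**
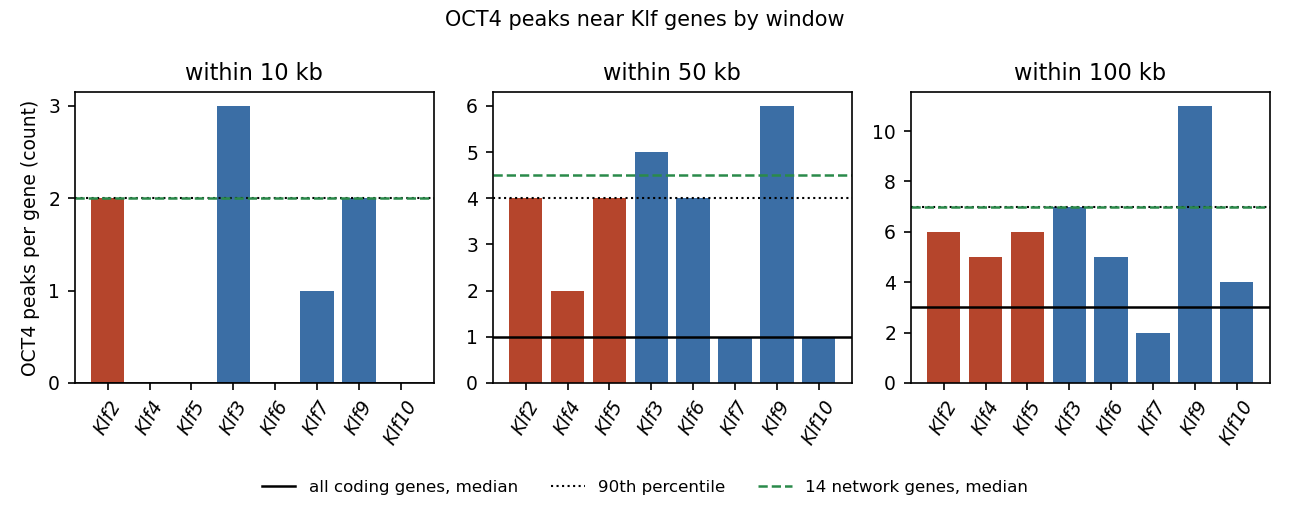
Number of OCT4 peaks within 10, 50 and 100 kb of any start of each Klf gene (bars; red, Klf2, Klf4 and Klf5; blue, comparison genes), with the median and 90th percentile of all protein-coding genes and the median of 14 network genes as lines. At 10 kb and 100 kb the 90th percentile and the network median coincide, at 2 and 7 peaks, and at 10 kb the median of all genes is 0.

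Among the comparison genes, Klf9, a glucocorticoid-responsive member of the family, had the most peaks, with 11 within 100 kb, a count reached by 1.81% of protein-coding genes. Of these, 6 lay within 50 kb and 2 within 10 kb. The nearest was 7.74 kb upstream (chr19:23133201-23133776, 576 bp), and the widest, of 812 bp, lay 8.66 kb downstream in an intron of Klf9 (chr19:23151895-23152706). Its 2 composite matches were in the peaks 36.5 kb upstream (chr19:23104503-23104869) and 77.1 kb downstream (chr19:23220605-23220877). The latter lay in an intron of Smc5, a gene for a chromosome maintenance protein, whose start was nearer, at 4.94 kb.

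Klf3 encodes a repressor that recruits CtBP. It had 7 peaks within 100 kb, a count reached by 12.7% of protein-coding genes, and 3 within 10 kb, counted over 9 annotated starts. Its nearest peak lay 0.509 kb from an internal start (chr5:64811719-64811940, 222 bp), and 6 of its 7 peaks were narrower than 300 bp. The widest, of 433 bp, lay 38.1 kb downstream (chr5:64864706-64865138) and held 3 KLF boxes. Its composite match was in a peak 28.5 kb downstream (chr5:64855192-64855435) that was 61.9% repeat-masked. At 300 bp and above, 1 Klf3 peak was left, while 64.8% of all peaks were at least 301 bp wide.

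Klf6, a widely expressed member, had 5 peaks within 100 kb, a count reached by 29.5% of genes, and 0 within 10 kb, as did Klf4. Its nearest peak lay 16.2 kb upstream (chr13:5845151-5845451, 301 bp). A peak 57.3 kb upstream (chr13:5803656-5804653) was the widest of all 46, at 998 bp, and held a composite match 194 bases from its midpoint. The second composite match was in a peak 35.2 kb downstream (chr13:5899636-5900062, 427 bp), which stood 306 bp from a peak with an octamer, both in an intron of the non-coding RNA gene Gm47507.

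Klf7, which acts in neuronal development, had 2 peaks within 100 kb, a count that 71.2% of genes reached. The nearest (chr1:64122033-64122673, 641 bp) spanned an annotated start, with its midpoint 0.071 kb upstream, and held 2 SOX cores. The other (chr1:64038362-64038584, 223 bp) lay in an intron of Klf7, 83.0 kb downstream, and held a composite match. Klf10, a gene induced by TGF-β, had 4 peaks within 100 kb, a count that 41.8% of genes reached, and 0 within 10 kb. Its nearest and widest peak lay 12.5 kb upstream (chr15:38313018-38313373, 356 bp), with a KLF box and a SOX core, and was 55.6% repeat-masked. The 2 downstream peaks were nearer to Odf1, a sperm tail protein gene, and none of the 4 held a composite match.

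The 6 composite matches around the comparison genes, all with 3 mismatches, are shown in the same way.
Klf3 28.5 kb downstream, chr5:64855331-64855375, minus strand: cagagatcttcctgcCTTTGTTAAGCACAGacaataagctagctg
Klf6 57.3 kb upstream, chr13:5803938-5803982, minus strand: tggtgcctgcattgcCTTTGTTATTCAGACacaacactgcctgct
Klf6 35.2 kb downstream, chr13:5899804-5899848, plus strand: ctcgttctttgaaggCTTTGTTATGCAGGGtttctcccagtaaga
Klf7 83.0 kb downstream, chr1:64038430-64038474, plus strand: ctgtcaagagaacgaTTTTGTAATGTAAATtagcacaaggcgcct
Klf9 36.5 kb upstream, chr19:23104770-23104814, plus strand: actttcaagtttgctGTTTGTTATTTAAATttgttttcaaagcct
Klf9 77.1 kb downstream, chr19:23220708-23220752, minus strand: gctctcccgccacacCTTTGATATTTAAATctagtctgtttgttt

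The matches near Klf3 and Klf6 kept the SOX segment whole and carried their mismatches in the OCT segment. The matches near Klf7 and Klf9 had mismatches in both. None of the 6 kept the octamer, which among the 13 matches around the 8 genes was intact only at the Klf5 peak 56.3 kb downstream.

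Of the 9 remaining KLF family genes, 4 had a peak within 10 kb, 5 within 50 kb and all 9 within 100 kb. These were 44.4%, 55.6% and 100%, against 38.5%, 72.1% and 85.4% of all protein-coding genes. Their median within 100 kb was 4 peaks, against 3 over all protein-coding genes. It ranged from 1 peak at Klf14, Klf16 and Klf17 to 8 at Klf15. Klf8, Klf12 and Klf13 had 5 each, Klf1, the erythroid member, had 4, and Klf11 had 2.

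A few peaks lay close to the limit of 100 kb. Just inside were the peaks of Klf2 at 99.15 and 98.0 kb, of Klf9 at 99.03 kb and of Klf10 at 99.30 kb. Just outside were peaks 100.1 kb upstream of Klf3, 103.5 kb upstream of Klf9, 104.0 kb upstream of Klf7 and 106.2 kb upstream of Klf10. For the core genes the next peaks were farther, at 174.0 kb for Klf2, 144.4 kb for Klf4 and 190.7 kb for Klf5.

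Most of the peaks were distal. Of the 17 around Klf2, Klf4 and Klf5, 14 were intergenic, 2 intronic and 1 in an exon. Of the 29 comparison peaks, 14 were intergenic and 15 intronic, and over all peaks the shares were 46.1% and 45.5%. Only 1 lay within 1 kb of a protein-coding start, and that start belonged to Fam32a. Among the comparison peaks, 2 did, at starts of Klf3 and Klf7. Over all peaks the share was 13.8%. The RefSeq promoter sequences (GRCm38.p6) matched 6 of the 8 genes, Klf2, Klf3, Klf4, Klf6, Klf7 and Klf9. None of the 6 overlapped a peak or held any of the motifs searched. The Klf7 sequence (chr1:64121340-64121639) lay at a different start from the start spanned by the Klf7 peak (chr1:64122033-64122673).

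Width was the only measure that the list gave for each peak. Since merging unites overlapping peaks, it need not be the width in any single library. The 17 peaks around Klf2, Klf4 and Klf5 had a median width of 422 bp, from 260 to 985 bp, against 341 bp for the 29 comparison peaks and 352 bp for all peaks. The median was 356 bp for Klf2, 436 bp for Klf4 and 491 bp for Klf5. Among the comparison genes it was 244 bp for Klf3, 322 bp for Klf10, 371 bp for Klf6, 406 bp for Klf9 and 432 bp for Klf7. At least 500 bp were spanned by 6 of the 17 core peaks, 6 of the 29 comparison peaks and 20.8% of all peaks. By gene these were 3 of 6 Klf5 peaks, 2 of 5 Klf4 peaks and 1 of 6 Klf2 peaks. In the comparison group they were 4 of 11 Klf9 peaks, 1 of 5 Klf6 peaks, 1 of 2 Klf7 peaks and 0 at Klf3 and Klf10. The exact 95% interval of the core median, from 332 to 703 bp, held the median of all peaks. This interval treats the 17 peaks as independent, although some lie within 1 kb of each other, and it is not a test.

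**Figure D3:**
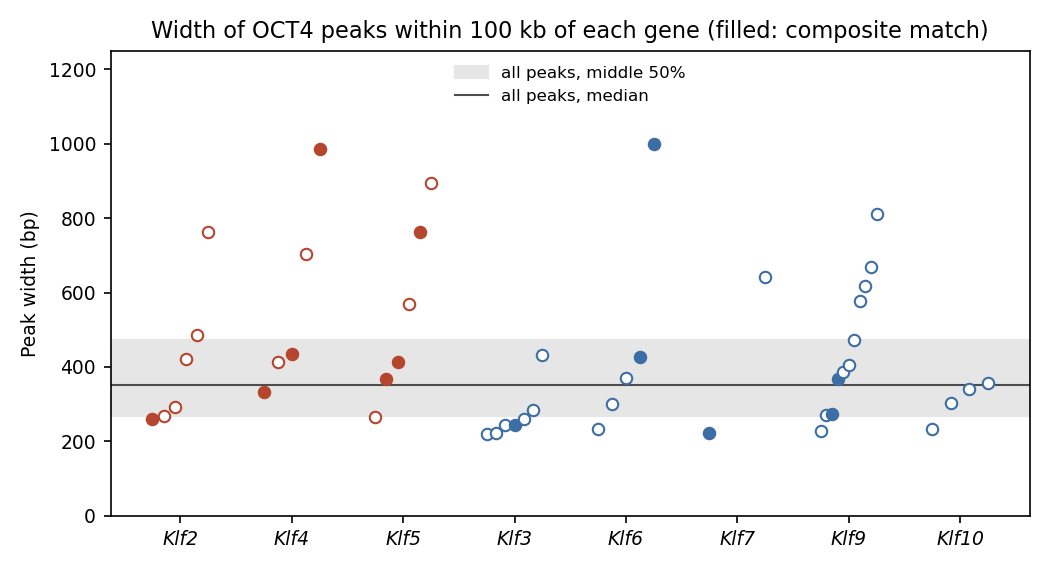
Width in bp of each OCT4 peak within 100 kb of the 8 Klf genes, with the median (line) and the middle 50% (band, 267 to 471 bp) of all 26704 peaks. The widest peaks are those of Klf6 (998 bp), Klf4 (985 bp) and Klf5 (895 bp). Filled points, which hold a composite match, lie above, inside and below the band.

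The composite motif was found in 7 of the 17 core peaks (41.2%, exact 95% Clopper-Pearson interval 18.4 to 67.1%), against 19.1% of all peaks. Klf4 had it in 3 of 5 peaks, Klf5 in 3 of 6 and Klf2 in 1 of 6. The comparison genes had it in 6 of 29 peaks (20.7%, interval 7.99 to 39.7%). These intervals cover counting error only, and both held the share of all peaks. The value moved with the mismatch limit. With at most 2 mismatches the motif was found in 1 of 17 core peaks (5.88%), against 4.44% of all peaks, and with at most 4 in 12 of 17 (70.6%), against 49.6%. Wide peaks offer more positions to a match, so the central 200 bp were also searched. There, 6 of 17 core peaks held the motif (35.3%, interval 14.2 to 61.7%), 4 of 29 comparison peaks (13.8%, interval 3.89 to 31.7%) and 14.2% of all peaks. The lower bound for the core peaks was level with the share of all peaks.

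Sequence of the same neighbourhoods outside peaks was searched in the same way. Of 2943 windows of 200 bp without a peak within 100 kb of Klf2, Klf4 and Klf5, 36 held a composite match (1.22%), and of 5068 such windows around the comparison genes, 75 did (1.48%). The share was 0.815% around Klf2, 1.53% around Klf4 and 1.33% around Klf5.

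The octamer was found in 4 of 17 core peaks (23.5%, interval 6.81 to 49.9%), against 1 of 29 comparison peaks (3.45%, interval 0.0873 to 17.8%) and 11% of all peaks. It occurred at the Klf2 peak 7.74 kb upstream, the Klf4 peak 11.9 kb downstream and the Klf5 peaks 40.9 and 56.3 kb downstream, and in the comparison group at Klf6. Both intervals held the share of all peaks. The SOX core was found in 5 of 17 core peaks and 13 of 29 comparison peaks, against 30.3% of all peaks. In all, 9 of 17 core peaks held a composite match or an octamer, 4 of them at Klf5, 3 at Klf4 and 2 at Klf2, against 7 of 29 comparison peaks and 26.2% of all peaks. None of composite match, octamer and SOX core was found in 7 of 17 core peaks and 11 of 29 comparison peaks, against 51.8% of all peaks. All shares in this paragraph are over whole peaks and were not repeated in the central 200 bp. The core peaks were wider than all peaks, with medians of 422 and 352 bp. The octamer 40.9 kb downstream of Klf5 lay 208 bases from the midpoint of its peak. How much width adds to these shares was not tested.

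Motifs of other factors of the naive network had few matches, and the KLF box was near its share of all peaks. The KLF box was found in 2 of 17 core peaks (11.8%), of Klf2 and Klf5. It was found in 3 of 29 comparison peaks (10.3%), of Klf3, Klf9 and Klf10, against 9.19% of all peaks. The ESRRB box TCAAGGTCA was found in 0 of 46 peaks, against 3.08% of all peaks. The STAT box TTCCNGGAA was found in 1, a Klf9 peak 65.3 kb upstream, against 1.73% of all peaks. With shares this low, few matches would be counted among 46 peaks, and a missing match says only that these letters were not in the peak.

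**Figure D4:**
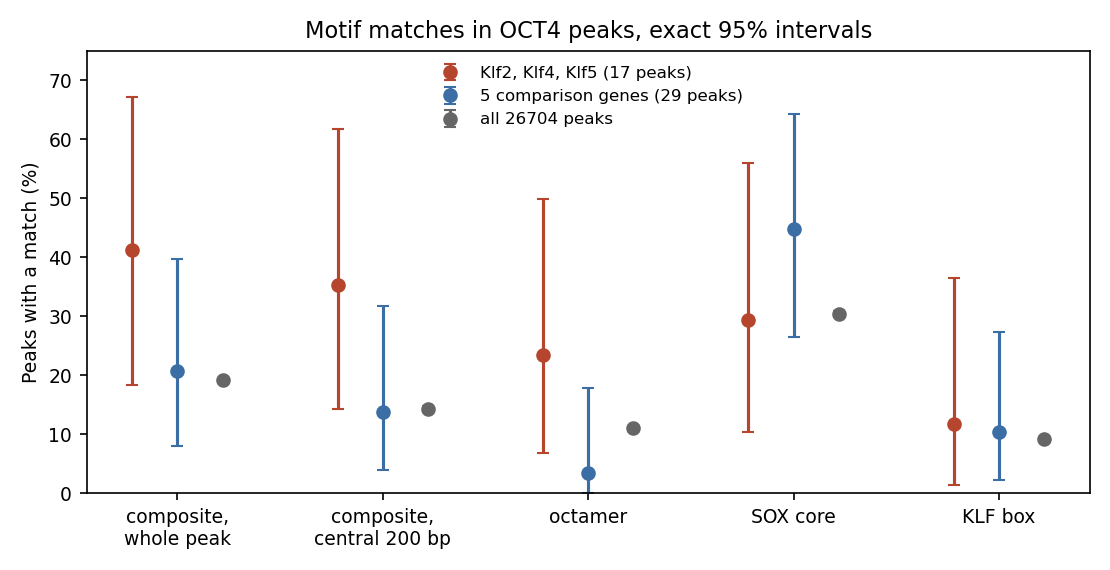
Percentage of OCT4 peaks with each motif (points) and its exact 95% Clopper-Pearson interval (bars, counting error only), for the peaks of Klf2, Klf4 and Klf5, of the comparison genes and of the whole list. For each of the 5 measures the interval of both Klf groups reaches the share of all peaks.

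The median GC content was 46.2% for the core peaks, 45.9% for the comparison peaks and 46.4% for all peaks. It was 50.9% for Klf2, where the Fam32a start peak reached 63.2%, 42.1% for Klf4 and 41.8% for Klf5. More than 50% of the bases were repeat-masked in 1 of the 17 core peaks and 3 of the 29 comparison peaks, against 15.6% of all peaks.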

How the data were processed

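ChIP-seq was performed for OCT4 and BRG1 in 2TS22C mouse ES cells and for H3K27ac in 2TS22C and ZHBTc4 cells. The authors aligned reads to mm10 with STAR 2.6.1c, removed duplicates with Picard, called peaks from read pairs with MACS2 2.1.1.20160309 and combined the peak sets with BEDTools. The deposited list used here gives the chromosome, start and end of 26704 OCT4 peaks. The BRG1 and H3K27ac libraries were not analysed here.

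Peaks were assigned to GENCODE M21 genes on GRCm38, whose chromosome lengths match mm10, by midpoint and any transcript start, within 10, 50 and 100 kb. Annotation was taken at the midpoint. Motifs were searched in the reference sequence. Intervals are exact 95% intervals. Scripts used Python 3.11.15, NumPy 2.4.6 and SciPy 1.17.1 and were tested on simulated data with planted motifs.

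The genes, lists and motifs were chosen with earlier results of these data known. By rule, all 8 Klf genes and all peaks around Klf2, Klf4 and Klf5 are described, and for the other 5 genes the nearest peak, the widest peak and each peak with a composite match. Genes nearer to a peak than the Klf gene are named. A few further peaks with octamers, KLF boxes or a STAT box were named after their values were seen. Alternatives were tried for the start, window, overlap, width, joining and mismatches.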

Additional observations from a re-analysis of the deposited data

How the results depend on the processing

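The number of peaks around Klf2, Klf4 and Klf5 stayed within 1.5 times of 17 for the most upstream coding start, any overlap, a width of at least 300 bp and joining within 1 kb. At 300 bp and above, Klf2 went from 6 peaks to 3, Klf4 stayed at 5 and Klf5 went from 6 to 5. The number for the 3 genes was 10 within 50 kb and 2 within 10 kb. For the comparison genes, 29 became 17 at 300 bp and above, 17 within 50 kb and 6 within 10 kb. At 300 bp and above the core genes kept 13 of 17 peaks. Over all peaks, 64.8% were at least 301 bp wide. The share of core peaks with a composite match was 5.88% with at most 2 mismatches, against 4.44% of all peaks and 0 of 29 comparison peaks. With at most 4 mismatches it was 70.6%, against 49.6% and 51.7%. Within 50 kb it was 30%. The median width was 485 bp at 300 bp and above and 569 bp after joining. Both settings raise widths by construction, so these values cannot be set against the 352 bp of all peaks. The share of protein-coding genes with a peak within 100 kb was 84.0% from the most upstream coding start. In all, 44 of 67 values stayed within their limits and 23 moved. The limits differed by kind of value, and the change from 85.4% to 84.0% counted as moved. Of the moves, 10 came in the 10 kb window and 6 in the 50 kb window, where a count cannot rise. The tally therefore does not measure how stable the results are. No paired analysis was possible because peaks in the list are not attributed to libraries, and leaving out a replicate was not run for the same reason. Depth per library is unknown and the list gives no peak heights, so missing peaks near Klf4 and Klf5 set no limit on binding there.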
